A study of Mus musculus with 4 samples.

Results

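The livers of old mice, at 21 months, were compared with those of young adult mice, at 4 months. Both groups were males of the inbred strain C57BL/6J, with free access to a low-fat diet from before the experiment began. Liver RNA of 6 mice of the same age was pooled and hybridised to 1 array, so 2 of the 4 arrays of the series carry the comparison, and the pools at 8 and 13 months, made in the same way, show when a difference already stood. A pool averages over its mice, so 1 mouse with a very high level cannot be told from 6 mice with a moderate one. Genes were represented by probe sets with a single annotated symbol, the brightest probe set standing for a gene with several. Of 18193 such genes, 11587 had a mean over the 4 arrays at or above 3.74, the median of all non-control probe sets, and these are the genes described. All levels are on the log2 scale, and all differences are log2 values of one pool minus the 4 months pool, where 1 is 2-fold and 0.585 is 1.5-fold. There is no replicate array, so no test was made, no error can be given and every difference is a size between pools. In whole liver, fewer cells of a type and less RNA per cell cannot be told apart.

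Hepatocytes make most plasma proteins. During inflammation, interleukin-6 acting through STAT3, together with interleukin-1 acting through NF-kB and C/EBP factors, raises the synthesis of acute phase proteins such as serum amyloid A, orosomucoid and lipocalin-2. The liver also holds the largest resident macrophage population of the body, the Kupffer cells, which display antigen on MHC class II and respond to interferons with guanylate-binding proteins and immunity-related GTPases. Hepatocyte metabolism is set in part by PPAR-alpha, the fatty acid sensor that drives fat oxidation, and by the male pattern of growth hormone pulses, which keeps one set of genes high and another low in male liver.

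The old liver differed from the young liver in few genes, and mostly by higher levels. At least 2-fold higher were 65 genes (0.561% of those kept) and at least 2-fold lower were 4 (0.0345%). At 1.5-fold the counts were 244 higher (2.11%) and 49 lower (0.423%). Counts within the gene lists below are read against these shares. The median difference over all kept genes was 0.01. The largest differences on the higher side were in acute phase genes. Cidea, a lipid droplet protein, and Cyp2b9, a cytochrome P450, also had large differences, but from 4 months values below the filter, so their sizes are less certain. On the lower side the largest difference of a named gene was -1.47.

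**Figure D1:**
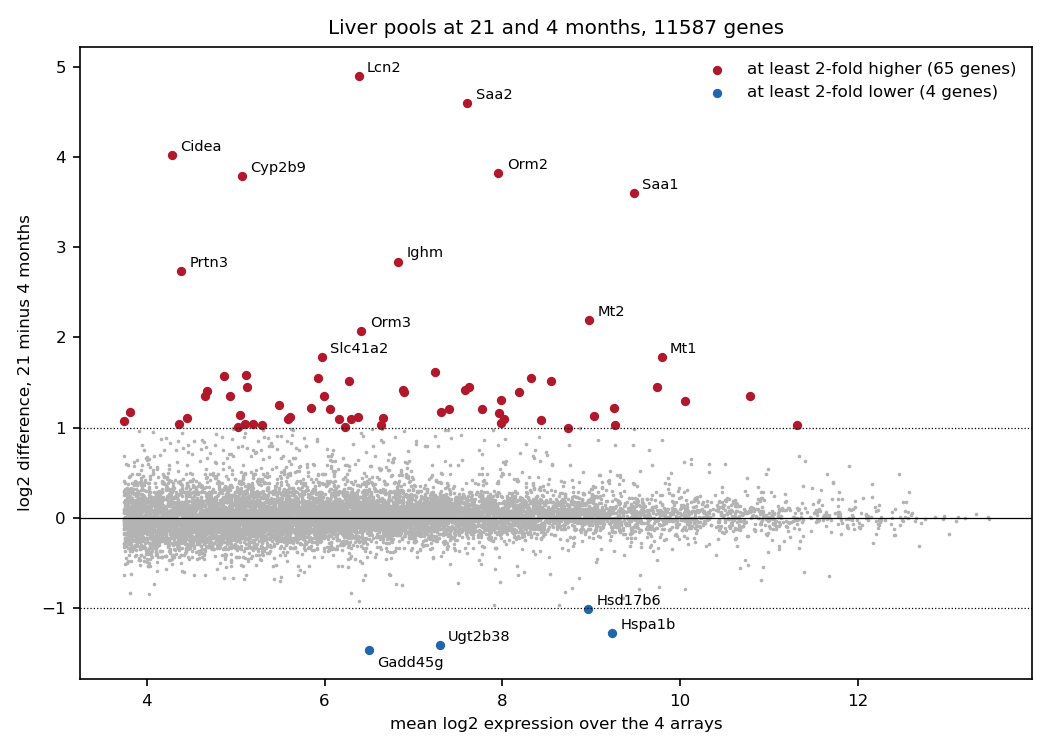
Each point is a kept gene, with its mean log2 level over the 4 arrays on the horizontal axis and the log2 difference of the 21 months pool minus the 4 months pool on the vertical axis. The 65 genes at least 2-fold higher are red, the 4 at least 2-fold lower are blue, and dotted lines mark 2-fold; the red points reach 4.90 while the blue points end at -1.47.

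The arrays were alike as a whole, with medians of 3.73 to 3.76. The labelled tissue was checked with markers. The 5 hepatocyte markers measured lay between 10.92 and 13.49 at 4 months, and their median difference at 21 months was -0.04. Adipocytes, exocrine pancreas and skeletal muscle had only 1, 2 and 3 markers above the filter, and none of these was 1.5-fold higher or lower. With so few markers this check was weak, most of all for adipocytes. The 6 Kupffer cell markers averaged 7.88 at 4 months and 8.60 at 21 months, and all were higher, by 0.51 to 1.03. Sinusoidal endothelial, stellate cell, B cell, and T and NK cell markers had median differences of 0.04, 0.12, 0.19 and 0.19. These medians include markers below the filter, which kept 3 of 4 B cell and 2 of 5 T and NK cell markers.

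Serum amyloid and orosomucoid genes showed how uneven the acute phase difference was within a gene family. Saa2 was at 6.55, 6.52 and 6.21 in the 4, 8 and 13 months pools and at 11.15 in the 21 months pool, a difference of 4.60. Saa1 was at 8.58, 8.84 and 8.32 and then at 12.18, a difference of 3.60, and its other probe set differed by 3.87. In both genes the 3 younger pools lay together and the old pool stood alone. Saa4, the constitutive member, differed by 0.51, and Saa3, which is made largely outside hepatocytes, by 0.48. Among the orosomucoids, plasma carriers of basic drugs, Orm2 was at 7.0, 6.73 and 7.27 and then at 10.82, a difference of 3.82. Orm3 was at 5.82, 5.60 and 6.35 and then at 7.89, a difference of 2.07. Orm1 was at 11.21 at 4 months and 11.90 at 21 months, a difference of 0.69. Within both families the members thus differed by very unequal amounts. A level near the top of an array's range can be compressed, and near-identical members can bind the same probes; the part of either in these differences was not tested.

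The regions just upstream of these genes are shown because Saa1 and Saa2, and Orm2 and Orm3, are close copies that differed by unequal amounts. Each run is the 200 bases before the annotated start, read 5′ to 3′ on the gene's strand, from RefSeq, build GRCm38.p6. Capitals mark matches, on either strand, to the C/EBP type motif TTNCNNAA. Saa1 lies at chr7:46742981-46743180 on the minus strand and Saa2 at chr7:46751633-46751832 on the plus strand, and Orm2 at chr4:63362249-63362448 and Orm3 at chr4:63355958-63356157, both on the plus strand.
Saa1: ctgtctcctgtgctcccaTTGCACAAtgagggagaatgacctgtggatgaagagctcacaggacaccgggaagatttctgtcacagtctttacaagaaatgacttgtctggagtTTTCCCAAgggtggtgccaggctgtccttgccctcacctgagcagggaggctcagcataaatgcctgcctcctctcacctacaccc
Saa2: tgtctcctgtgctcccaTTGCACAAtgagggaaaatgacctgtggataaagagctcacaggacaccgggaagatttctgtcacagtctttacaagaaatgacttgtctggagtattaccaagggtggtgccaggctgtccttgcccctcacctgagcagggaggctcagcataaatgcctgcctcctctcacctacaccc
Orm2: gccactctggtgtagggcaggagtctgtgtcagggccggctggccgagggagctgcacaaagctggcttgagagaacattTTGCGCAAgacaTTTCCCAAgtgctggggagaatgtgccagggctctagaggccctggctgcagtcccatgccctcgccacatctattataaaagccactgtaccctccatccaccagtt
Orm3: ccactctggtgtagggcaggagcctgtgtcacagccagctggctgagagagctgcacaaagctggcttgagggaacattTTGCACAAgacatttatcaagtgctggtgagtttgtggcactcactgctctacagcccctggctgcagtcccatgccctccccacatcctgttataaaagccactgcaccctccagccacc
An alignment of these windows found 195 of 201 positions identical between Saa1 and Saa2 (97.0%) and 174 of 205 between Orm2 and Orm3 (84.9%). In each pair the first gene holds 2 matches and the second 1. Saa1, with the smaller difference, has more matches than Saa2, while Orm2, with the larger difference, has more than Orm3. The part of these matches in the differences was not tested. A match in these letters is a description and not a measured binding site.

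Other acute phase proteins were higher too, by amounts that ranged over most of the scale. Of 23 measured, 22 were above 0 at 21 months, 8 passed 1.5-fold, 6 of those 2-fold, and the median was 0.47. Lcn2, lipocalin-2, which withholds iron from bacteria by binding their siderophores, was at 4.88, 5.34 and 5.53 and then at 9.78, the largest difference of all kept genes at 4.90. Apcs, serum amyloid P, was at 9.42, 9.23 and 9.45 and then at 10.87, a difference of 1.45. Fgl1, a fibrinogen-like protein secreted by hepatocytes, was at 10.48, 10.27 and 10.56 and then at 11.83, a difference of 1.35. Lrg1, a leucine-rich plasma glycoprotein outside this list, was at 10.93, 11.16 and 11.20 and then at 11.96, a difference of 1.03. Each of these 4 genes had its highest level in the old pool, and the younger pools spanned 0.65 or less. Steap4, a metalloreductase, was higher by 1.22, and a second probe set by 1.16. The least differences in this list were in Crp, C-reactive protein, which is only a minor acute phase protein in mice, with 0.08, and Hamp2, a hepcidin gene, with 0.09. Vnn3 was the single member below 0, at -0.10.

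The genes that carry the acute phase signal differed far less than Saa1, Saa2, Orm2 and Lcn2. Of 27 measured genes of interleukin-6 and interleukin-1 signalling, 17 were above 0, 9 were below, 2 were at least 1.5-fold higher and none was at least 1.5-fold lower. Their median was 0.13, beside 0.47 for the other acute phase proteins, several of which also differed little. The 2 were Nfkbiz, a nuclear IkB protein, at 5.53 in the young and 6.30 in the old pool (0.77), and Stat3 itself, at 8.30 and 8.93 (0.63). No other probe set above the filter passed 1.5-fold in either gene, with 0.09 and 0.28 for Nfkbiz and 0.15 and 0.58 for Stat3. Socs3, the feedback inhibitor that STAT3 induces, differed by 0.41, with a higher level at 8 months (7.07) than at 13 months (6.46). The receptor subunit Il6st differed by 0.22 and Il6ra by -0.20. The factors Cebpb, Cebpd and Rela differed by -0.01, 0.13 and 0.00.

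Metallothioneins, small zinc-binding proteins that are also acute phase genes, followed. Mt2 was at 8.37, 8.01 and 8.96 and then at 10.56, a difference of 2.19. Mt1 was at 9.37, 9.07 and 9.58 and then at 11.15, a difference of 1.78, while its other probe set gave 0.99. In both genes the 8 months pool was the lowest and the old pool the highest. Of the 12 zinc and metallothionein genes these were the only ones at least 1.5-fold higher. The zinc importer Slc39a14, which is induced by interleukin-6, differed by 0.40 and the zinc transporter Slc30a5 by 0.48. The importer Slc39a4 was at 8.05 in the young pool and 7.33 in the old, a difference of -0.72, but it was already at 7.22 at 8 months, and against the mean of the 3 younger pools the difference was -0.23. The windows upstream of Mt1 (chr8:94178889-94179088) and Mt2 (chr8:94172418-94172617), both on the plus strand, follow as the neighbouring pair on the same chromosome; capitals mark the metal response type motif TGCNCNC on either strand.
Mt1: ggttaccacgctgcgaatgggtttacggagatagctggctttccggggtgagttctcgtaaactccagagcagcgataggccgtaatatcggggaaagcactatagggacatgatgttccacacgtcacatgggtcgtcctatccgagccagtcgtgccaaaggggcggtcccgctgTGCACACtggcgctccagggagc
Mt2: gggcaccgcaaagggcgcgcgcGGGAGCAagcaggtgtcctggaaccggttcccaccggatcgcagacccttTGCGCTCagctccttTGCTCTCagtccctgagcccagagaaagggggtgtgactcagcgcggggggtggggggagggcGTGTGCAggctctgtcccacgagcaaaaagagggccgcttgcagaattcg
They align with 111 of 219 positions identical (50.7%), with 1 match for Mt1 and 4 for Mt2. These counts depend on the annotated start that places each window, and bases after the start were not searched. A match is not a measured binding site, and the part of these matches in the differences was not tested.

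Macrophage genes were higher as a broad group of moderate differences. Of 27 measured pan-macrophage and myeloid genes, 27 were above 0, 25 passed 1.5-fold and 3 passed 2-fold, and the median was 0.82 beside 0.01 for all kept genes. The 25 are read against the 2.11% of all kept genes that were 1.5-fold higher. Mpeg1, perforin-2, was at 7.78, 7.42 and 8.38 and then at 9.17, a difference of 1.39. Cybb, the catalytic subunit of the phagocyte NADPH oxidase, differed by 1.10, and its other probe sets by 0.24 and 1.33. Itgb2, the CD18 integrin chain, differed by 1.01. Just under 2-fold lay Ctss, cathepsin S, with 0.99 and Ly86 with 0.98. The 2 members under 1.5-fold were Csf2ra at 0.32 and Ncf1 at 0.25.

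Genes listed for Kupffer cell identity, some of which other macrophages share, among them Adgre1, Csf1r and Axl, differed less evenly. Of 22 measured, 20 were above 0 and 7 passed 1.5-fold, and the median was 0.52. The 2 below 0 were Cd163 with -0.34 and C6 with -0.22. Il18bp, a secreted inhibitor of interleukin-18, was at 5.98, 5.70 and 6.46 and then at 7.07 (1.09). Cd5l, a macrophage-secreted scavenger protein, was at 9.09, 8.63 and 9.24 and then at 10.12 (1.03). Timd4, a phosphatidylserine receptor of embryo-derived Kupffer cells, was at 5.43, 5.06 and 5.57 and then at 6.41 (0.98). These genes share a dip at 8 months, and the median of the list there was -0.25. Fcna, Nr1h3 and Mertk differed by 0.02, 0.12 and 0.14. Among 12 genes of monocyte-derived and lipid-associated macrophages 4 were at least 1.5-fold higher, Plac8 with 1.39, Lgals3, galectin-3, with 1.12, Clec7a, the beta-glucan receptor dectin-1, with 1.11, and Clec4n with 0.99. In the same list the monocyte chemokine receptor Ccr2 differed by -0.02 and the dendritic cell integrin Itgax by 0.17. The 3 chains of C1q, which macrophages make, were all higher, C1qb by 0.87, C1qc by 0.71 and C1qa by 0.63, whereas C1ra and C1s1, the hepatocyte-made proteases of the same complex, differed by 0.13 and 0.25. Of 7 Ms4a genes outside B cells 3 were 1.5-fold higher, Ms4a6b by 0.87, Ms4a4d by 0.75 and Ms4a6d by 0.67, and Ms4a4c differed by -0.01. Beside these lists, the 6 Kupffer markers fixed for the tissue check had a median difference of 0.66, and their part in the higher macrophage genes was not tested.

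Antigen presentation genes were higher on both arms, more so for class II. H2-Ab1 was at 7.48, 7.03 and 7.89 and then at 8.69 (1.21), and its 2 other probe sets gave 1.12 and 1.27. H2-Eb1 differed by 1.16, the invariant chain Cd74 by 1.08 and H2-Aa by 1.0. All 4 were lower at 8 months than at 4 months and highest at 21 months. Of the 7 class II genes measured the other 3 were not 1.5-fold different in either direction: H2-DMa, the peptide-loading chain, differed by 0.54, H2-DMb2 by 0.01 and H2-Eb2 by -0.46. Of 15 class I and immunoproteasome genes 4 were at least 1.5-fold higher, beside 2.11% of all kept genes, and the median was 0.45. Psmb9, Psmb8 and Psmb10, the catalytic subunits that replace those of the standard proteasome under interferon, differed by 0.82, 0.80 and 0.59. The peptide transporter Tap1 differed by 0.63, and B2m, the class I light chain, by 0.18 from a level of 12.46.

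Interferon-inducible GTPases were higher nearly throughout, and in part already at 13 months. Of 12 measured, a count that includes the transcription factor Irf1, 12 were above 0, 10 passed 1.5-fold and 4 passed 2-fold, and the median was 0.94. Igtp, which guards against intracellular parasites, was at 7.63, 7.35, 9.11 and 9.18 (1.55). Gbp2b was at 4.38, 3.22, 5.33 and 5.78 (1.40), and its 8 months value lay below the level filter of 3.74. Gbp3 was at 5.26, 4.80, 5.99 and 6.38 (1.12). In these 3 genes the 8 months pool was the lowest and the 13 and 21 months pools were the highest. Ifi47 differed by 1.05 and Irgm2 by 0.97. The list's median was -0.37 at 8 months and 0.41 at 13 months. At 13 months 5 of its members were already at least 1.5-fold higher, beside 0.837% of all kept genes at that age. The factor Irf1, which drives many of these genes, differed by 0.34.

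Genes of the type I interferon response were higher in part. Of 31 measured, 15 passed 1.5-fold and 6 passed 2-fold, and the median was 0.50. Ly6e, an antiviral surface protein, was at 9.69, 9.32 and 10.24 and then at 10.98 (1.29), with 0.74 by its other probe set. Rtp4 was at 6.92, 6.95, 7.58 and 8.13 (1.21). Ifi27, a mitochondrial protein, was at 8.49, 8.80, 9.20 and 9.62 (1.13), a step at every age. Ifi27l2b and Ifi27l2a differed by 1.14 and 1.09, and against the mean of the 3 younger pools Ifi27l2b differed by 0.75. Irf7, the amplifier of interferon production, was at 6.26, 6.07, 6.94 and 7.29 (1.03). Other members lay at their young level: Dhx58 was at -0.10, Isg20 at -0.09 and Oas2 at 0.01.

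The windows upstream of Igtp (chr11:58199356-58199555) and Gbp3 (chr3:142559844-142560043), both on the plus strand, are shown because the GTPases were higher as a group. Both are windows that hold matches to the motif below. For Gbp3 the start site with the most matches was taken, and the 250 bases upstream of its other start site held 0. The same stretch held 0 matches in Ifi47 and 1 in Gbp2b. Capitals mark matches to an interferon response type motif, GAAA followed by 2 bases of any kind and GAAA, on either strand; in Gbp3 2 matches overlap.
Igtp: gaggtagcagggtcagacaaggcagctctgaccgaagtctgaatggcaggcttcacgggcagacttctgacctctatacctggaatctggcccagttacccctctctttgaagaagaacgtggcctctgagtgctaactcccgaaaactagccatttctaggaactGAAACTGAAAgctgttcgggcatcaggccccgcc
Gbp3: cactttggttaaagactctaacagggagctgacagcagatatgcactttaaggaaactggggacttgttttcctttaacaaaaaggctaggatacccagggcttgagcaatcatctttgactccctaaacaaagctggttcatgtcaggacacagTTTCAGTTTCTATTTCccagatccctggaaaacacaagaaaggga
The same search was run on the 250 bases upstream of every kept gene with a RefSeq promoter, 11951 promoters of 9348 genes, of which 55 promoters belong to 47 of the 65 genes at least 2-fold higher. The interferon response type motif was in 10.9% of the 55 promoters and 2.51% of all, and in none of the 18 promoters of the 20 lowest genes. The C/EBP type motif was in 58.2% of the 55, in 66.7% of the 18 and in 28.9% of all. The STAT3 type motif TTCNNNGAA was in 9.09% of the 55 and 5.79% of all. An NF-kB type motif (GGG and CC 5 bases apart) was in 43.6% against 60.5%, and the metal response type motif in 47.3% against 52.6%. These are shares of letters in windows; the first of them rests on 6 promoters, and nothing was tested.

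Chemokine and adhesion genes were higher in part. Of 18 measured, 6 were at least 1.5-fold higher, beside 2.11% of all kept genes. Cxcl1, which recruits neutrophils, was at 7.35, 7.19 and 7.17 and then at 8.80 (1.45), and its other probe sets gave 0.85 and 2.11. Vcam1, the endothelial and Kupffer cell adhesion molecule, differed by 0.94, Cxcl13, which attracts B cells, by 0.85, Ccl5 by 0.79 and Ccl6 by 0.74. Ccl9, Ccl4 and Ccl8 differed by 0.01, 0.00 and 0.06. Of 13 neutrophil genes 6 were at least 1.5-fold higher, to be read against the same 2.11%. Beside Lcn2, which hepatocytes also make, S100a8 was at 5.50, 5.41, 6.22 and 6.85 (1.35) and S100a9 at 4.69, 4.53, 5.14 and 6.14 (1.45), the 2 chains of calprotectin. Wfdc17 and Fpr2, a formyl peptide receptor, differed by 0.72 and 0.68. Prtn3, proteinase 3, was at 3.67, 3.74 and 3.72, near the level filter, and at 6.40 in the old pool (2.73). Other defining neutrophil genes were near their young level or below the filter. Elane, the elastase gene beside Prtn3 in the genome, was at 4.99 in the young and 4.88 in the old pool, Ctsg differed by -0.02 and Ngp by 0.19, and Camp, Mpo and Cxcr2 were below the filter, with differences of 0.02, 0.07 and -0.16. The 7 neutrophil markers together averaged 4.22 at 4 months and 4.62 at 21 months.

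Some immunoglobulin genes were higher; of 11 B and plasma cell genes 2 passed 1.5-fold, Ighm and Jchain. Ighm, the mu heavy chain, was at 5.46, 6.41, 7.15 and 8.30, a step up at every age and a difference of 2.84. A second probe set of Ighm gave 2.28, but the other 4 above the filter gave 0.00 to 0.44, and the mean over its 11 probe sets differed by 0.48. Jchain, which joins IgM and IgA chains in plasma cells, was at 4.60, 4.95 and 4.73 and then at 6.18 (1.58). Igkv8-30, a kappa light chain segment, was at 4.34, 4.36, 4.87 and 5.91 (1.57). Igha differed by 0.44 and Ighg3 by -0.16. The B cell genes Ms4a1, Cd79b, Cd22 and Pax5 differed by 0.18, 0.19, -0.01 and -0.16, and the plasma cell genes Mzb1 and Xbp1 by 0.06 and 0.28; most of these lay close to the filter on level, where RMA compresses differences. Of 8 T and NK cell genes Ccl5 alone was 1.5-fold higher. Klrk1 and Gzmb, cytotoxic lymphocyte genes near the filter, both differed by 0.58, and Cd4, Cd8a and Cd3e by -0.01, 0.09 and -0.09.

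Lipid genes held one very large difference and several smaller ones. Cidea, which fuses lipid droplets and is low in lean liver, was at 2.69, below the filter, in the young pool, at 3.87 and 3.84 at 8 and 13 months, and at 6.71 in the old pool (4.02, or 2.97 with low values raised to the filter). The 24 lipid droplet and PPAR-gamma genes measured, Cidea included, had a median of 0.10, which turned to -0.01 when the 3 younger pools served as the baseline. Fitm1 differed by 0.70 and the fatty acid receptor Cd36 by 0.62. Fitm1 stood near its final level earlier, at 8.66 and 8.63 against 8.70, while Cd36 was at 8.06 and 8.04 at 8 and 13 months and at 8.33 in the old pool. Mgll, Pnpla2 and Dgat2 differed by 0.03, 0.01 and -0.01. Of 26 genes of fatty acid synthesis 4 were at least 1.5-fold higher and 1 lower. Thrsp, a lipogenic protein, differed by 0.98, with 0.12 and 1.02 by its other probe sets, the transcription factor Srebf1 by 0.90, Mid1ip1, which activates acetyl-CoA carboxylase, by 0.75 and Fasn, fatty acid synthase, by 0.66. Srebf1 went from 8.00 through 8.18 and 8.56 to 8.90, in step order. Fads2, Slc25a1 and Acss2 differed by 0.00, 0.01 and -0.03, and the elongase Elovl3 by -0.69. Of 21 cholesterol genes 18 were above 0 but only Sqle (0.75) and Fdft1 (0.60), enzymes of squalene formation and use, were 1.5-fold higher. The only other Fdft1 probe set above the filter gave 0.50.

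Fat oxidation genes lay slightly below the young pool as a group. Of 22 PPAR-alpha response genes 18 were below 0, 5 of them at least 1.5-fold lower, none was 1.5-fold higher, and the median was -0.23. The 5 are read against the 0.423% of all kept genes that were 1.5-fold lower. Acot1, a cytosolic acyl-CoA thioesterase, was at 8.63, 9.21 and 9.04 and then at 7.66 (-0.97). Cyp4a31, a fatty acid hydroxylase, was at 8.16, 8.28 and 8.00 and then at 7.19 (-0.97), and its other probe set gave -1.42. Angptl4, the lipoprotein lipase inhibitor, differed by -0.67, Cyp4a14 by -0.65 and Acot3 by -0.64. Acot1, Cyp4a31, Cyp4a14 and Acot3 were above their young level at 8 months, and the list's medians were 0.14 and 0.11 at 8 and 13 months, and the lowest level of each was in the old pool. Ppara itself differed by -0.20. The hormone gene Fgf21 differed by -0.53 and Pdk4, which spares glucose, by -0.50. Of 28 genes of mitochondrial and peroxisomal fatty acid oxidation, 22 were below 0 and none differed 1.5-fold, with a median of -0.09. The lowest were Ehhadh at -0.34 and Pex11a at -0.29, and the peroxisomal transporter Abcd2 was highest at 0.55. Members of the Acot and Cyp4a families are near-identical to neighbours, so their probe sets may read more than 1 gene.

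**Figure D2:**
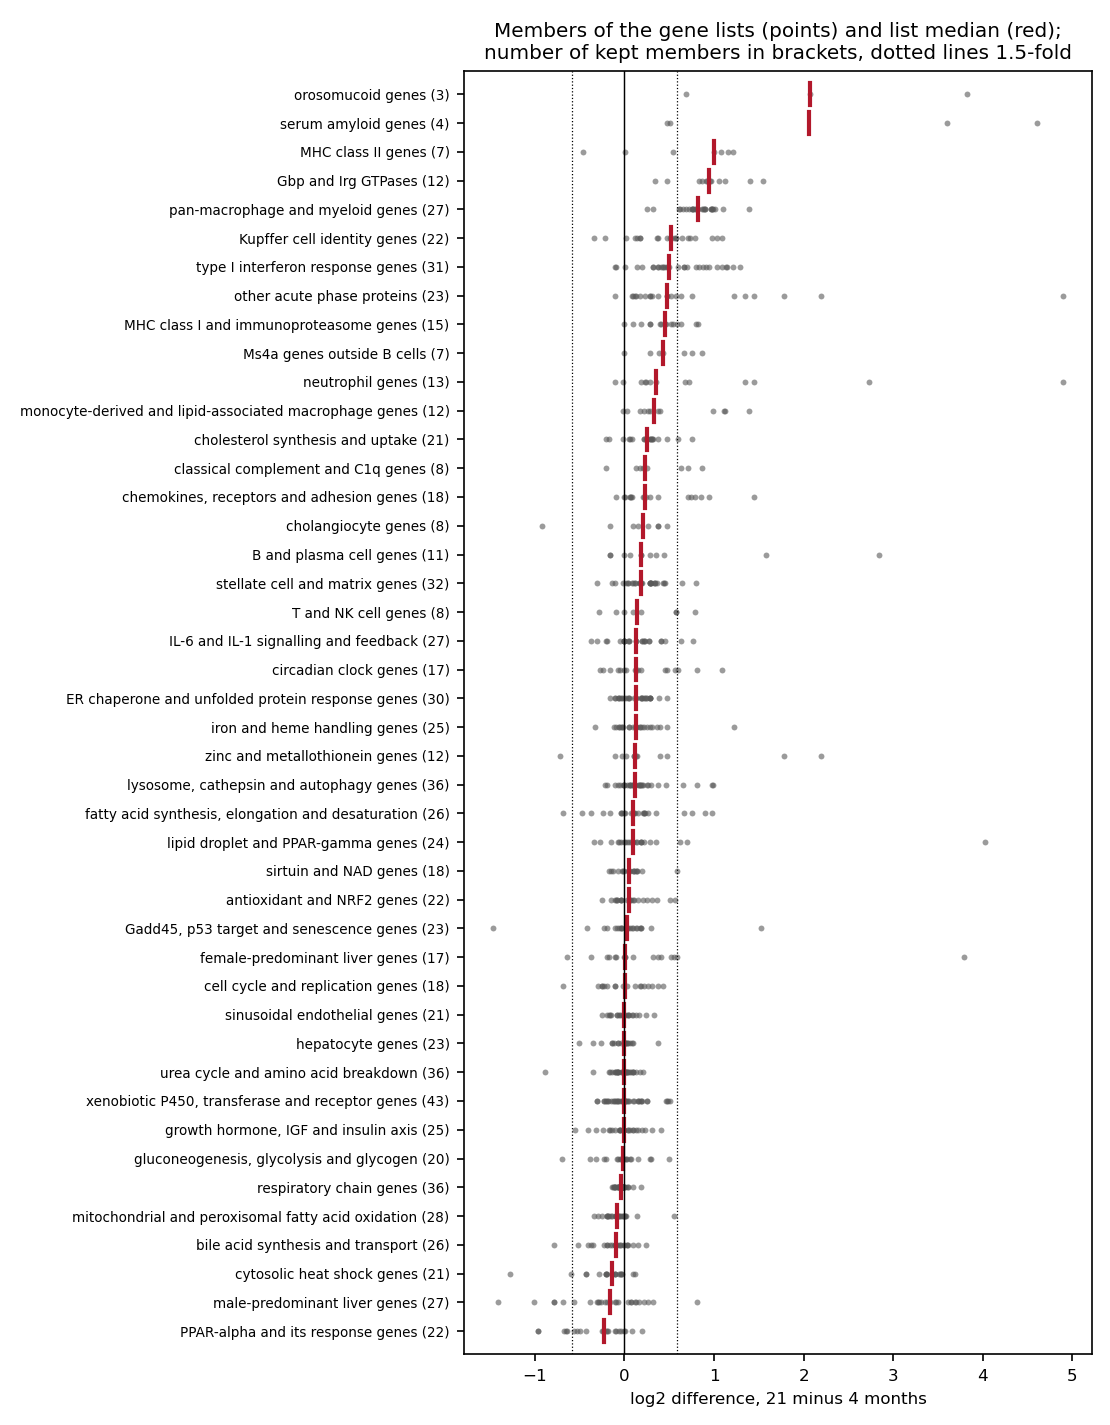
Each row is a gene list, each grey point a kept member's log2 difference of the 21 months pool minus the 4 months pool, and each red bar the list median; the number in brackets counts kept members and dotted lines mark 1.5-fold. Orosomucoid and serum amyloid genes lie at the top with medians of 2.07 and 2.06, and PPAR-alpha response genes at the bottom with -0.23.

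Sex-biased liver genes held 2 of the 4 genes at least 2-fold lower. Of 27 male-predominant genes 5 were at least 1.5-fold lower, 2 of them 2-fold, 1 was 1.5-fold higher, and the median was -0.16. The shares of all kept genes were 0.423% at least 1.5-fold lower and 0.0345% at least 2-fold lower. Ugt2b38, a glucuronosyltransferase, was at 7.52, 8.05 and 7.50 and then at 6.11 (-1.41). Hsd17b6, a retinol and steroid dehydrogenase, was at 9.40, 9.12, 8.95 and 8.39 (-1.01), a step down at every age, and the mean over its probe sets differed by -0.67. Slco1a1, an organic anion importer, was at 10.38, 10.36, 9.87 and 9.59 (-0.79), and its other probe set gave -0.96. Hsd3b5, a male-specific steroid reductase, was at 9.90, 10.06, 9.09 and 9.11 (-0.79). The last 3 were already lower at 13 months than at 4 months, by 0.45 to 0.81 in size. Egfr, the epidermal growth factor receptor, was on the opposite side by its brightest probe set, at 9.27, 9.60, 8.94 and 10.08 (0.81). Its 5 other probe sets above the filter gave -0.33 to 0.80, so its direction is uncertain. Nudt7, Rdh16 and C8b differed by 0.07, 0.07 and 0.04. Of 17 female-predominant genes 2 were at least 1.5-fold higher, 1 was 1.5-fold lower (Acot3), and the median was 0.01. Cyp2b9, which adult male liver normally keeps low, was at 3.69 and 3.56, below the filter, in the 4 and 8 months pools, at 5.55 at 13 months and at 7.48 at 21 months (3.79, or 3.74 with low values raised to the filter). Nnmt, nicotinamide N-methyltransferase, differed by 0.59, and Cux2, Tox and Cyp17a1 by 0.01, 0.01 and 0.00. Hormone axis genes were close to their young level: Igf1, Stat5a and Foxo1 differed by -0.01, 0.00 and 0.04, and Igfbp2 was the farthest of 25 at -0.55.

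Stress genes split between their members. Gadd45a, a DNA damage and growth arrest protein, was at 5.15 in the 4 months pool and at 6.74, 6.52 and 6.67 in the later pools (1.52). Its paralog Gadd45g went the opposite way, at 7.22, 6.76, 6.25 and 5.75 (-1.47), lower at each age. For Gadd45a the 4 months pool stood alone, and against the mean of the 3 younger pools the old pool differed by 0.53. Of the 23 p53 target and senescence genes measured these were the only ones 1.5-fold different; Cdkn1a, the p21 cell cycle inhibitor, differed by 0.30 and Mdm2 by 0.03. The inducible heat shock gene Hspa1b was at 9.94 and 9.95 at 4 and 8 months and at 8.40 and 8.66 at 13 and 21 months (-1.28), and its other probe sets gave -1.22 and -1.35. Against the mean of the 3 younger pools it differed by -0.77. Its near-identical copy Hspa1a differed by -0.60, Hsph1 and Hspb1 both by -0.43, and of 21 cytosolic heat shock genes 19 were below 0, with a median of -0.14. Chaperone and stress genes of the endoplasmic reticulum lay on the other side, 21 of 30 above 0, and none differed 1.5-fold; Chac1 differed by 0.48 and Manf by 0.39. Clock genes were also uneven. Of 17 measured, 3 were at least 1.5-fold higher, beside 2.11% of all kept genes, and the median was 0.13. Noct, a rhythmic NADP phosphatase, was at 7.58, 7.41, 8.41 and 8.67 (1.09). Dbp was at 7.98 and then at 9.07, 9.14 and 8.79 (0.81). Per3 was at 5.08, 5.79, 5.93 and 5.68 (0.60), with 0.23 to 0.61 by its other probe sets above the filter, while Per1 and Per2 differed by -0.05 and 0.00. The hour at which each pool was collected is unstated in the sources used here, and its part in these values was not tested.

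Of the 65 genes at least 2-fold higher, 42 belong to at least 1 of 44 gene lists, and the other 23, among them Lrg1 and Igkv8-30 above, are a mixed group. Slc41a2, a magnesium transporter, was at 5.58, 5.36 and 5.58 and then at 7.36 (1.78). Serpinb1a, an inhibitor of neutrophil proteases, was at 6.32, 6.62, 8.09 and 7.94 (1.62), with 1.39 by its other probe set and 0.93 against the mean of the 3 younger pools. Wfdc2, a secreted whey acidic domain protein, was at 4.99, 6.06, 6.10 and 6.54 (1.55), and against the younger mean at 0.82. Cyp26a1, which breaks down retinoic acid, was at 7.60, 8.21, 9.24 and 9.12 (1.52), and against the younger mean at 0.77. These last 3 genes had covered most of their difference by 13 months. Prg4, lubricin, differed by 1.42 and Serpina7, thyroxine-binding globulin, also by 1.42. Calhm6, an immune cell channel protein, differed by 1.35. Atp11a, a phospholipid flippase, differed by 1.35, but a second probe set gave -0.27. Lgals1, galectin-1, was at 7.33, 7.96, 8.03 and 8.63 (1.30), and against the younger mean at 0.86. Scara5, a ferritin receptor, was at 4.94, 5.76, 5.04 and 6.19 (1.25), and the mean over its 2 probe sets differed by 0.55. Slc3a1, the heavy subunit of a cystine transporter, differed by 1.17, Pla2g7, which inactivates platelet-activating factor, by 1.03, and Plek, pleckstrin of blood cells, by 1.01, with 0.30 by another probe set. Nebl (1.17) and S1pr5 (1.07) started below the filter, and with low values raised to the filter S1pr5 differed by 0.44. Fabp7, a fatty acid binding protein, and Slc22a26, an organic anion transporter, both differed by 1.04. Zfp991 also differed by 1.04, but against the mean of the 3 younger pools by 0.35. 9030619P08Rik, Ctla2b and AB124611 differed by 1.22, 1.21 and 1.11.

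The 20 lowest genes, of which 11 belong to a list, had differences from -1.47 to -0.72. Cdh1, E-cadherin of epithelial junctions, was at 6.99, 6.55, 5.96 and 6.07 (-0.92), and against the mean of the 3 younger pools at -0.43. Etnppl, which breaks down phosphoethanolamine, was at 9.78, 9.23, 9.51 and 8.89 (-0.89), and its other probe set gave -1.11. Csad, an enzyme of taurine synthesis, was at 9.84, 10.07 and 10.05 and then at 9.07 (-0.77), below all younger pools. Nlrp12, a regulator of inflammatory signalling, was at 9.03, 8.87, 8.70 and 8.21 (-0.82), lower at each age. Slc25a30, a mitochondrial carrier, differed by -0.78, with -0.66 to -0.19 by its other probe sets above the filter. Itih5 differed by -0.83 and Aqp4, a water channel, by -0.73, but their second probe sets gave -0.32 and -0.21. Serpina4-ps1 differed by -0.73 by its brightest probe set and by -1.19 and -1.85 by the others. Plppr2 (-0.85), Rpl12 (-0.83) and 9130409I23Rik (-0.74) depended on the 4 months pool: against the mean of the 3 younger pools they differed by -0.54, -0.34 and -0.40.

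Most of the higher genes did not yet stand at 8 or 13 months. They were chosen by their value in the 21 months pool, so a high value there by itself makes a gene look late. The 2-fold size of that choice is also larger than the 1.5-fold used for the earlier ages. The timing below is therefore in part set by the choice of genes. Taking 1.5-fold as the size at which a difference stands, 8 of the 65 stood at 8 months and 25 at 13 months. Over all kept genes 0.501% were 1.5-fold higher at 8 months and 0.837% at 13 months, but the 3 differences share the 4 months array, so a low value in that pool raises all of them. Standing at both ages were 7 genes, Cidea, Ighm, Wfdc2, Gadd45a, Cyp26a1, Lgals1 and Zfp991, while Scara5 stood at 8 months and not at 13. Cidea was below the filter at 4 months and close to it at 8 and 13 months, so its standing there rests on values near background. With low values raised to the filter, 7 genes stood at 8 months and 23 at 13 months. Another 18 stood at 13 months and not at 8, among them Cyp2b9 (1.86 at 13 months), Serpinb1a (1.77), Igtp (1.48), S1pr5 (1.01), Gbp2b (0.95), Noct (0.83), Calhm6 (0.76), Gbp3 (0.73), S100a8 (0.72) and Irf7 (0.68). The remaining 39 (60%) stood at 21 months only, including Saa1, Saa2, Orm2, Orm3, Apcs, Fgl1, Lrg1, Prtn3, Mt1 and the 4 class II genes. The median difference of the 65 was -0.10 at 8 months, 0.46 at 13 months and 1.29 at 21 months. At 8 months 38 of the 65 were below their 4 months level, and at 13 months 5 were. For comparison, the median over all kept genes was 0 at 8 months and 0.01 at 13 months. Lying below the 4 months level at 8 months is thus common, and its share over all kept genes was not counted. Mt2 barely passed 1.5-fold at 13 months (0.59), and Fabp7 missed it (0.58). Lcn2, at 0.65, stood at 13 months with a small part of its final 4.90. Already within 0.2 of the final difference at 13 months were 6 genes, Serpinb1a, Igtp, Gadd45a, Cyp26a1, S1pr5 and Zfp991. In 49 of the 65 the old pool was more than 1.5-fold above the 13 months pool.

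**Figure D3:**
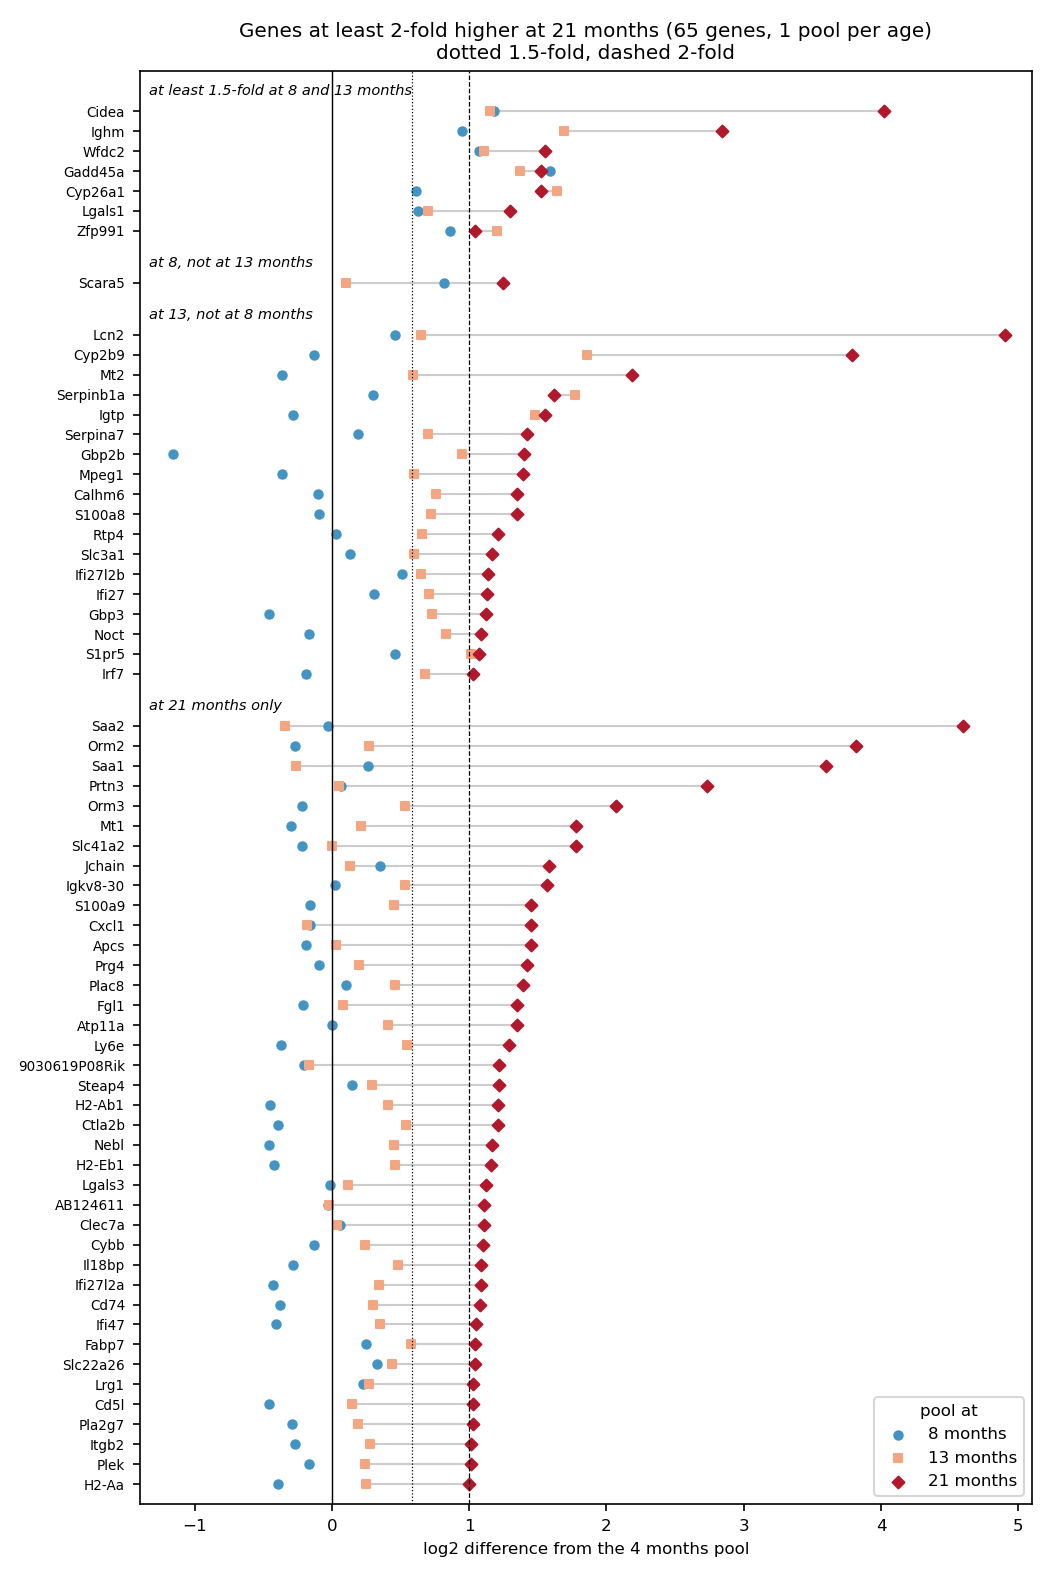
Rows are the 65 genes at least 2-fold higher at 21 months, grouped by when they stand, and symbols are the log2 differences of the 8 months (circle), 13 months (square) and 21 months (diamond) pools from the 4 months pool. Dotted and dashed lines mark 1.5-fold and 2-fold; in the lowest group, of 39 genes, the circles and squares lie left of the dotted line.

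The 1.5-fold higher genes, which include the 2-fold genes, had gone about as far by 13 months as the 2-fold genes alone. Their median shares of the final difference were 0.338 and 0.331, and the overlap of the sets makes these partly alike from the start. A smaller final difference less often reaches 1.5-fold on the way. Of the 244 genes at least 1.5-fold higher, 18 stood at 8 months and 46 at 13 months, and 196 (80.3%) stood at 21 months only. Of the 49 genes at least 1.5-fold lower, 8 stood at 8 months and 13 at 13 months, and 32 (65.3%) at 21 months only. Over all kept genes 0.354% were 1.5-fold lower at 8 months and 0.457% at 13 months. Of the 4 genes 2-fold lower none stood at 8 months, while Gadd45g (-0.97) and Hspa1b (-1.54) stood at 13 months. Rpl12, Slc39a4, Tsc22d3 and P4ha1 stood at both 8 and 13 months, though other probe sets of Tsc22d3 and P4ha1 differed by as little as -0.15 and -0.25 at 21 months. Ugt2b38 was above its young level at 8 months by 0.53 and at -0.02 at 13 months, so its low level was in the old pool only.

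**Figure D4:**
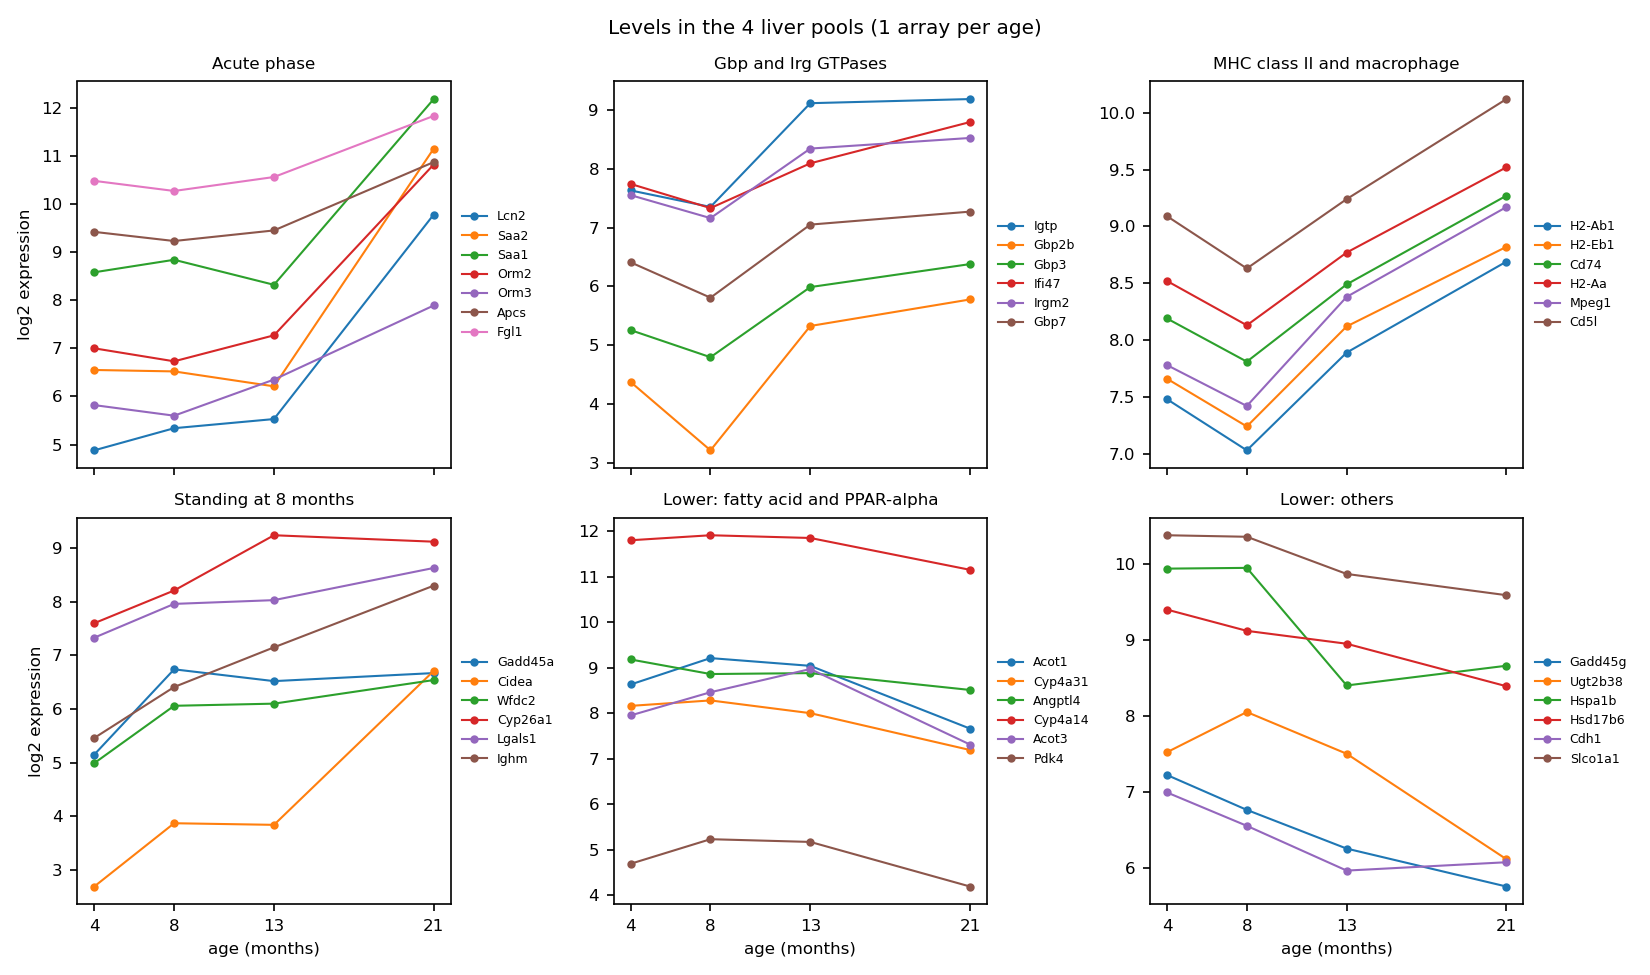
Log2 levels (vertical axis, scale differs by panel) at 4, 8, 13 and 21 months (horizontal axis) in 1 pool per age, for genes of the acute phase, interferon-inducible GTPases, class II and macrophage genes, genes that stood at 8 months, and lower genes. Saa1 and Saa2 are flat to 13 months and then at 12.18 and 11.15, the GTPases are lowest at 8 months, with Igtp near its final level at 13 months, and Gadd45a is at its final level from 8 months.

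Large groups of liver function genes differed little. Of 36 respiratory chain genes 31 were below 0, yet the farthest were Uqcrc1 at -0.14 and Uqcrc2 at 0.18, and the median was -0.04. The 23 hepatocyte genes had a median of 0.00, with Foxa1 at -0.51 and Fgb, the fibrinogen beta chain and an acute phase protein, at 0.37. Of 43 P450, transferase and receptor genes none differed 1.5-fold; Nqo1 was highest at 0.51 and Cyp1a2 lowest at -0.31. Of 26 bile acid genes Slco1a1 alone was 1.5-fold lower; Cyp8b1, which sets the share of cholic acid, differed by -0.52 and Cyp7a1, which catalyses the first and limiting step from cholesterol to bile acids, by -0.41, though Cyp7a1 ranged from 8.90 to 9.96 over the 4 pools. Of 36 urea cycle and amino acid genes Etnppl alone was 1.5-fold lower. Of 20 genes of glucose metabolism Pfkfb3, which makes the activator of glycolysis, was lowest at -0.70 and Pgd, of the pentose phosphate pathway, highest at 0.50. Of 32 stellate cell and matrix genes 28 were above 0 and 2 passed 1.5-fold, Vim, vimentin, by 0.80 and Tgfbi by 0.64, with 0.39 to 0.47 by the other Tgfbi probe sets; Col4a1 and Dcn differed by 0.45 and 0.44. The 21 sinusoidal endothelial genes had a median of 0.00, from Wnt2 at -0.25 to Vwf at 0.33. Cell cycle genes had a median of 0.01, with Myc at -0.69 and Mcm4 at 0.43. Of 36 lysosome genes 4 were 1.5-fold higher, Ctss (0.99), Laptm5 (0.98), Lgmn (0.81) and Ctsc (0.65), but the 4 other probe sets of Laptm5 gave 0.01 to 0.36. Lamp1 and Npc1 both differed by 0.00. Of 22 antioxidant genes none differed 1.5-fold, with Gpx3 highest at 0.56. Of 18 sirtuin and NAD genes Nnmt alone did, and Sirt3 and Sirt6 differed by -0.02 and -0.15.

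Where a gene had several probe sets they mostly gave the same direction. A further probe set bright enough to be kept existed for 15 of the 65 genes, and for 13 of them at least 1 such probe set was also 1.5-fold higher. The others were Atp11a (-0.27) and Plek (0.30). The 13 include Ighm, for which only 1 of 5 such probe sets was 1.5-fold higher, and Cybb, for which another gave 0.24. None had another probe set at least 1.5-fold lower. Among genes whose mean was below the filter but whose old or young level was above it, the highest differences were Cdh19, a cadherin, at 2.66 in the young and 4.22 in the old pool (1.56), Cidec, a second lipid droplet protein of the Cide family, at 2.93, 3.45, 3.55 and 4.05 (1.12), Prelid2 (1.09), Gzma, granzyme A of cytotoxic lymphocytes (1.05), and Bmper (0.98). The lowest were Rgmb (-0.75), Morn4 (-0.65), Bmp10 (-0.64), A330023F24Rik (-0.62) and Fat4 (-0.52). Values this dim cannot be told from background without detection calls, which were not used here.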

How the data were processed

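RNA of pooled livers was extracted with Trizol and labelled as biotinylated cRNA, per the labels' protocols. The authors deposited log2 expression values of 45101 probe sets per array, made with RMA per the submitters' processing notes; RMA corrects background, equalises the distributions of arrays and summarises probes on the log2 scale, so a shift shared by most genes would not be visible and dim differences are compressed. Its version and the probe set build were not stated in the sources used here. Names came from the platform annotation: 34945 had 1 symbol, 932 several, 9160 none, and 64 were controls. By gene identifier 34741 of those with 1 symbol matched the RefSeq GRCm38.p6 gene table, which altered 0 symbols. The probe set with the highest mean stood for a gene, and genes with a mean of at least 3.74 were kept.

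Differences were taken between pools and counted by fixed sizes (1.5-fold, log2 0.585, and 2-fold); with 1 array per age there was no test. The counting was checked on simulated data. The text names every gene at least 2-fold higher or lower, the 20 lowest, the 5 highest and 5 lowest among dim genes, and, of the gene lists, up to 5 members with the largest and 3 with the smallest difference plus regulators; a few other members and the genes standing at several ages were named after their values were seen. The comparison, sizes, gene lists and markers were chosen with earlier results of these data known. Alternatives were other probe set summaries, level filters, normalizations, sizes and baselines. Python 3.11.15, numpy 2.4.6, pandas 2.3.3, Biopython 1.88, matplotlib 3.10.9, R 4.3.3 and limma 3.58.1 (normalizations only) were used.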

Additional observations from a re-analysis of the deposited data

Results flagged for a closer look

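Probe sets that entered no gene count also differed between the old and the young pool. Among probe sets with several annotated symbols and a mean above the filter, 8 were at least 2-fold higher, by up to 2.77, and 1 was at least 2-fold lower (-1.19). Among probe sets with no symbol 6 were at least 2-fold higher, by up to 1.53, and 6 were at least 2-fold lower. The lowest of these was at 6.73, 5.30, 5.58 and 3.54 at 4, 8, 13 and 21 months, a difference of -3.19, which lies below every named gene. They were singled out because they lie outside the genes described, and they are not named here.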

How the results depend on the processing

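With 1 pool per age no replicate could be left out, and no paired analysis was possible because no group has replicates. Under other probe set summaries, filters, normalizations and baselines the count at least 2-fold higher ranged from 44 to 85 (65 as described) and that at least 2-fold lower from 3 to 6 (4). None of the 65 higher or 20 lowest genes turned sign where still measured. The summary by the smallest difference cannot turn a sign. It gives 0 where the probe sets of a gene are not all on the same side, as for Atp11a and Ighm. Of the 65, 55 stayed at least 2-fold with the mean over probe sets, 58 with quantile normalization, 61 with cyclic loess and 47 against the mean of the 3 younger pools. A filter at the 75th percentile left 137 genes 1.5-fold higher (244) and 31 lower (49), since fewer genes were counted. With 3-fold in place of 2-fold 13 genes were higher and 0 lower. The number standing at 8 months (8) was 5 with the mean over probe sets, 5 with the 75th percentile filter and 3 at 2-fold; at 13 months (25) it was 10 at 2-fold. The cause of the other shifts was not tested. The median of all kept genes stayed between -0.01 and 0.03. Of the list medians within 0.10 of 0, those of the lipid droplet, growth hormone, xenobiotic, bile acid, urea cycle, gluconeogenesis, p53 and cell cycle lists turned sign under at least 1 setting. Levels near 3.74 are close to background, and precision is limited by the 2 arrays.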
